A study of Homo sapiens with 18 samples.

Results

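The genes described here are CCND1, CDK4, CDKN1A, CDKN1B, CDKN2A, E2F1, AURKA and BIRC5, 8 genes that drive, brake or complete the cell division cycle. Their open chromatin was taken as every ATAC-seq peak within 50 kb of the gene's body on hg19, which gave 727 of the 781454 peaks in 18 libraries. Peaks that overlapped by at least 1 bp were merged across libraries, and this left 78 regions around the 8 genes among 150322 regions in all. No gene was chosen for how its peaks behaved, although earlier results of these data were known when the genes were chosen.

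ATAC-seq marks open chromatin by letting a transposase insert adapters into accessible DNA. The human neuroblastoma cell lines Kelly and BE2C were transduced with a lentivirus that carried shAhR-1, shAhR-2 or the empty vector pLKO. Both hairpins are directed against AHR, the gene of the aryl hydrocarbon receptor, and the series title places the study in neuroblastoma with MYCN amplification and its dedifferentiation. Each of the 6 groups held 3 libraries. The labels describe triplicates of collected cells and name no separate cultures or transductions, so the spread behind every p-value is that of these libraries and could be technical in part or in whole. Within a line, the shAhR-1 and shAhR-2 comparisons share the same 3 pLKO libraries.

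Cyclin D1, the product of CCND1, binds CDK4, and the complex phosphorylates the retinoblastoma protein in G1. This releases E2F1 and related factors, which turn on genes of DNA replication. The products of CDKN1A, CDKN1B and CDKN2A restrain this step, while AURKA and BIRC5 act later, in mitosis. Members of the MYC family, N-Myc among them, bind the E-box CACGTG. AHR, paired with its partner ARNT, binds DNA around the core GCGTG.

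RefSeq promoters, 250 bases before to 50 bases after an annotated start on GRCh38.p14, were at hand for 5 of the 8 genes, as 6 promoters. None was at hand for CCND1, AURKA or BIRC5. The promoters of CDK4 and E2F1 are printed because their 5′ ends changed in rank in BE2C shAhR-2. Those of CDKN1A and CDKN2A are printed because their peaks lie at starts inside the gene body. Capitals mark every match, on either strand, to CACGTG, to the GCGTG core or to CCAAT, which is the box that NF-Y binds. A match on the opposite strand shows as the reverse complement. Sequences run 5′ to 3′ along the gene.
CDK4 promoter, chr12:57752261-57752560, minus strand: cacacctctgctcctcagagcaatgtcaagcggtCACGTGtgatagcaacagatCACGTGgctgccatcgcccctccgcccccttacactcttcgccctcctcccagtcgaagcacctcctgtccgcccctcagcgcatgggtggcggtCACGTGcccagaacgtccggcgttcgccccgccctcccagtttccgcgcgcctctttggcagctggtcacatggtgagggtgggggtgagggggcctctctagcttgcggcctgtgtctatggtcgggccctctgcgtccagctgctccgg
E2F1 promoter, chr20:33686336-33686635, minus strand: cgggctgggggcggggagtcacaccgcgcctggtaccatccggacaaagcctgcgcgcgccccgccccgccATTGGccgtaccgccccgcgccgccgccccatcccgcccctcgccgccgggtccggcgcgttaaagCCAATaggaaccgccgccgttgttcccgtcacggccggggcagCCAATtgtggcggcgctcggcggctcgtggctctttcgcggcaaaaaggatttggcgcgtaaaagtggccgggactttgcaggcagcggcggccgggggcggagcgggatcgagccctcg
CDKN1A promoter, chr6:36678464-36678763, plus strand: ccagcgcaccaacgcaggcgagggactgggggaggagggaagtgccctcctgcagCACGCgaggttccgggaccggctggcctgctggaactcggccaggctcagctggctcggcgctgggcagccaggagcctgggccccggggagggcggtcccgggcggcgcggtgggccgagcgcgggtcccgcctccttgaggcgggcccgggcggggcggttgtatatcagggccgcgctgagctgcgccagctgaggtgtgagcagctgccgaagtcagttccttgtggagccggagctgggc
CDKN2A promoter at the outer start, chr9:21995275-21995574, minus strand: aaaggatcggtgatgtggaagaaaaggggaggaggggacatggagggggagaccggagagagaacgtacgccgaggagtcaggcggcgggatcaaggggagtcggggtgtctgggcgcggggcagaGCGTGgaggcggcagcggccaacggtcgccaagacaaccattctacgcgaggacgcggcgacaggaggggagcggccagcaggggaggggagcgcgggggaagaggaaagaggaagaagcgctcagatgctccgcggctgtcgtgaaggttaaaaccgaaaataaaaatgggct
CDKN2A promoter at the inner start, chr9:21974808-21975107, minus strand: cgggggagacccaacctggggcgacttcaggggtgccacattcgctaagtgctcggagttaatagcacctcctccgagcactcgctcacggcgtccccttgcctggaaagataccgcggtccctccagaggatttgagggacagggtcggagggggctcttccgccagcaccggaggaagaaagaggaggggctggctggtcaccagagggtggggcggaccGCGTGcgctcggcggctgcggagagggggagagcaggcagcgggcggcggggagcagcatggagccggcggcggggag
The CDK4 promoter holds CACGTG 3 times, which 7.26% of 35116 RefSeq promoters of the same length hold at least once, and it is the only one of the 6 with a match. E2F1 and CDKN1B each hold CCAAT 3 times, against a share of 34.6% of all promoters with at least 1 match. GCGTG occurs once in the CDKN1A promoter, once in that of CDKN1B and once in each of the CDKN2A promoters, and 36.5% of all promoters hold it. None of the 6 holds TTTGAA, the core of the CHR element of mitotic genes, which 15.2% of promoters hold. The mitotic genes AURKA and BIRC5 were not among those searched, so this says nothing about them. Nor does any of the 6 hold the exact letters GCGGGAA, 1 form of the E2F site, which 6.55% hold. Other forms of that site were not searched for. Each match is of letters only, and no 2 matches overlap.

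The deposited lists differed in length, with between 9204 and 81637 peaks on chromosomes 1 to 22 and X. The shAhR-2 lists were the longest in each line, and replicate 1 of Kelly shAhR-1 was the shortest of all. A local background, obtained from each peak's fold and −log10 p and tied to read depth, spanned 0.601 to 4.42 overlapping reads per position. It was 2.56 to 2.91 in Kelly shAhR-2 and 3.40 to 4.42 in BE2C shAhR-2, above the 1.26 to 1.92 of Kelly pLKO and the 1.50 to 1.86 of BE2C pLKO. Peaks were therefore compared by rank, that is, by their place in the list of their own library when sorted by the authors' −log10 p, with rank 1 the strongest. Lists were shortened to the shortest of the line, 9204 peaks in Kelly and 25660 in BE2C. A region without a peak in a library had no peak past the caller's threshold, which does not show that its chromatin was closed.

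Across the 18 libraries the 8 genes had more shared regions than the genome at large. Of their 78 regions, 7 had a peak in all 18 libraries (8.97%), against 4.22% of all regions. Another 13 missed a single library, in each case Kelly shAhR-1 replicate 1, which held only 7 peaks near the 8 genes. Thus 20 regions (25.6%, against 8.13% of all regions) had a peak in at least 17 libraries. At the other end, 12 regions (15.4%) were seen in 1 library only, against 37.6% of all regions. Peaks of both lines fell in 55 of the 78 regions (70.5%, against 40.3%), peaks of Kelly alone in 10 and peaks of BE2C alone in 13. These shares were not tested, since regions of 1 locus are not independent.

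The regions were spread unevenly over the genes. CCND1 had 14 regions and BIRC5 had 12, CDK4 and E2F1 had 11 each, CDKN1B and AURKA 9 each, CDKN2A 8 and CDKN1A 4. The 7 regions seen in all 18 libraries were 2 at CDK4, 2 at CDKN1B and 1 each at E2F1, AURKA and BIRC5. A peak within 500 bp of the 5′ end was found for 7 of the genes, the exception being CDKN1A, and 5 of these 7 regions had a peak in at least 17 libraries. Of the remaining regions, 8 lay in gene bodies, 25 upstream and 38 downstream. Other genes overlap these windows on GRCh38. Examples are METTL1, CYP27B1 and TSFM near CDK4, CDKN2B and MTAP near CDKN2A, FAM210B and CSTF1 near AURKA, and TK1 near BIRC5. A region is therefore named here by its distance from the member gene and is not assigned to it.

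**Figure D1:**
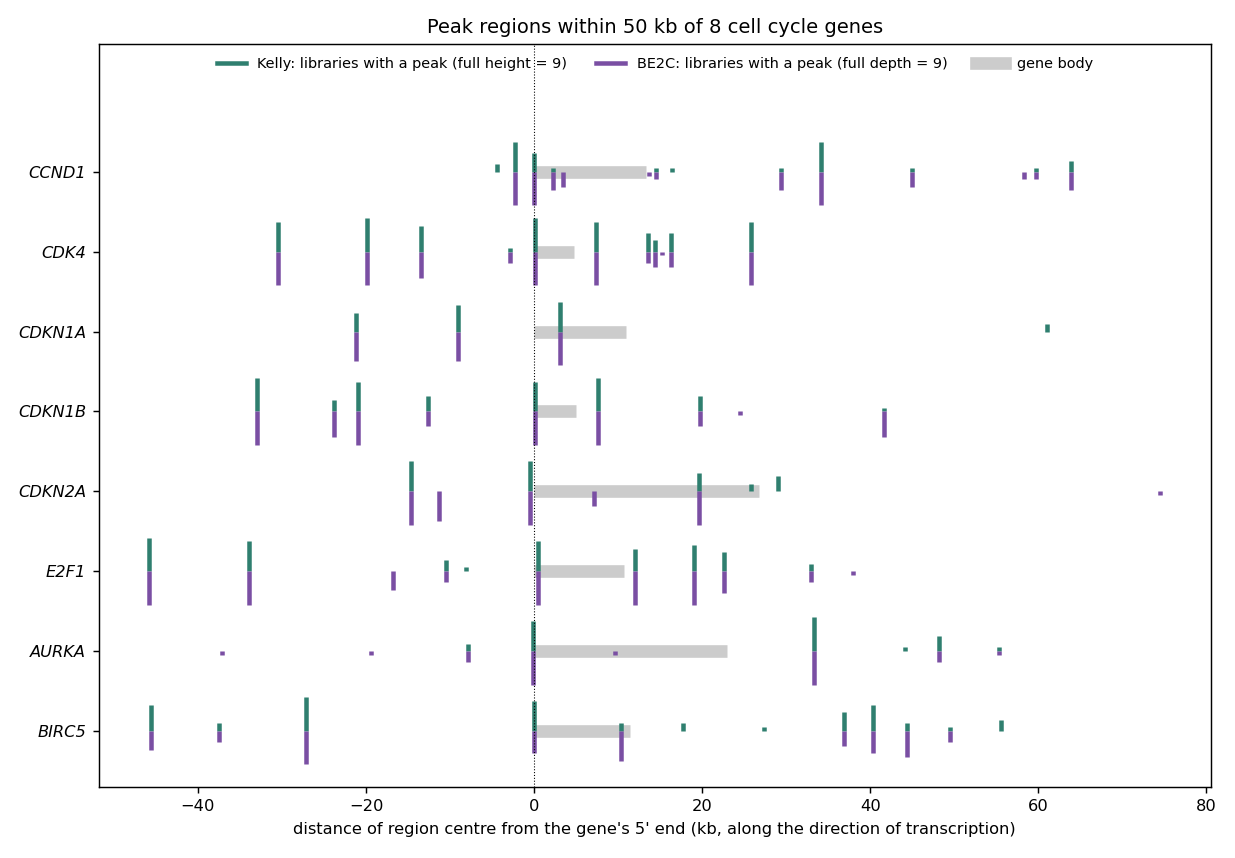
Peak regions around the 8 genes. The x axis gives the distance of a region's centre from the gene's 5′ end in kb along the direction of transcription. The length of the bar above the line is the number of Kelly libraries with a peak (at most 9) and below the line the number of BE2C libraries, and grey boxes are gene bodies. CDKN1A has 4 regions and none at its 5′ end, while CCND1 has 14.

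The number of peaks near the 8 genes followed the length of the list. In Kelly the full lists held 7, 31 and 27 such peaks with shAhR-1, 58, 45 and 57 with shAhR-2, and 42, 26 and 36 with pLKO. In BE2C they held 39, 32 and 27 with shAhR-1, 61, 58 and 57 with shAhR-2, and 35, 41 and 48 with pLKO. The shAhR-2 libraries had the highest numbers in each line, with no overlap with pLKO. At equal list length this order was gone. Kelly then had 7, 11 and 13 peaks with shAhR-1, 13, 13 and 14 with shAhR-2, and 15, 14 and 12 with pLKO. BE2C had 31, 32 and 27 with shAhR-1, 28, 30 and 30 with shAhR-2, and 29, 35 and 32 with pLKO. The groups of each line overlapped or shared a value. Per 10000 peaks of the full list, BE2C shAhR-2 had 7.50 ± 0.533 and BE2C pLKO 10.7 ± 0.520 (SD, n = 3 each). For Kelly this density was 8.35 ± 0.801 in shAhR-2 libraries, against 12.3 ± 0.576 in pLKO libraries (SD, n = 3 each).

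**Figure D2:**
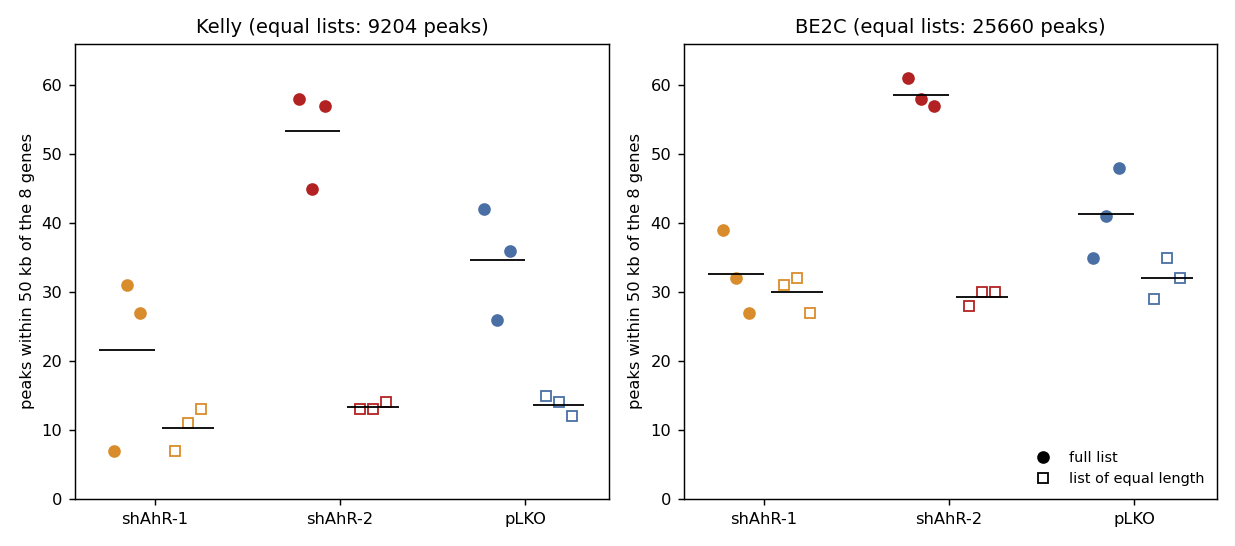
Number of peaks within 50 kb of the 8 genes (y axis) in each library by line and group. Filled circles are full lists, open squares are lists of equal length within the line (9204 peaks in Kelly, 25660 in BE2C), and black bars are means of 3 libraries. The full lists of shAhR-2 stand above the rest, while the means of the equal lists lie between 10.3 and 13.7 in Kelly and between 29.3 and 32 in BE2C.

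With shAhR-2 in BE2C, the 5′ ends of E2F1 and CDK4 moved down the ranking and a region at −30.4 kb from CDK4 moved up. A region 48.2 kb beyond the 5′ end of AURKA had a peak in all 6 shAhR-2 libraries and in no pLKO library of either line. In Kelly, no region near the 8 genes passed a test of either hairpin with all 9 libraries. The lines themselves differed, and the 5′ end of AURKA ranked lower in Kelly when its shortest library was left out. The values of each are given under the gene concerned.

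The rank of a region was tested with limma on the log2 scale, over all regions with a peak in every library of the line, with Benjamini-Hochberg adjustment and a threshold of 0.05. The effect is called the log2 rank gain and is positive where the region stands nearer the top in the hairpin libraries. Of 22 regions near the 8 genes tested in BE2C, 5 passed with shAhR-2, 1 ranked higher and 4 lower. That is 22.7% of the members, against 30.3% of all 15099 regions tested (15.1% higher and 15.2% lower), so the share called is no higher than the background. The median gain over the 22 was −0.064, and −0.0041 over all regions. With shAhR-1 none of the 22 passed limma's adjusted threshold, against 3.78% of all regions. Before adjustment 5 had a limma p under 0.05, against 19.5% of all regions, and the median gain was −0.15, against −0.025 over all regions. In Kelly only 5 regions could be tested, and none passed with shAhR-1 (background 0.301%) or with shAhR-2 (background 5.37%). At an unadjusted limma p under 0.05 the counts were 1 with shAhR-1 and 0 with shAhR-2, against 15.4% and 23.1% of all regions. Without replicate 1 of Kelly shAhR-1, lists of 19984 peaks allowed 17 regions to be tested. Of these, 0 passed with shAhR-1 (background 0.94%) and 1 with shAhR-2 (background 10.5%). Before adjustment 2 had a limma p under 0.05 with shAhR-1, against 15.5% of all regions, and 3 with shAhR-2, against 27.6%.

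A region was called gained where all 3 hairpin libraries and no pLKO library had a peak at equal list length, and lost in the reverse case. In BE2C 43 member regions entered this count. With shAhR-1 none was gained (background 1.37%) and 2 were lost (background 1.69%). With shAhR-2, 1 was gained (background 3.59%) and 2 were lost (background 3.2%). In Kelly none of 19 was gained or lost with either hairpin. The Kelly backgrounds were 1.33% gained and 1.61% lost with shAhR-1, and 2.84% gained and 2.9% lost with shAhR-2.

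CCND1 encodes cyclin D1, the G1 cyclin. Its 5′ end (chr11:69455476-69456243) had the weakest median rank, 28054, of the 7 genes with a peak there. No Kelly shAhR-1 library had a peak at the 5′ end, Kelly shAhR-2 ranked it at 39222, 46709 and 38120, and Kelly pLKO at 29271 and 21049 with none in replicate 2. BE2C ranked it at 29245, 21509 and 15592 with shAhR-1, at 27494, 30985 and 28614 with shAhR-2, and at 21859, 25173 and 26647 with pLKO. This peak was called in 5 of 9 Kelly libraries and in all 9 BE2C libraries. Its fold enrichment over local background, the authors' value at the summit, lay between 2.60 and 3.95 over the 14 libraries. Just upstream, the −2.29 kb region (chr11:69452862-69454306) had a peak in 17 libraries, at ranks between 12210 and 32892.

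The strongest CCND1 region lay beyond the gene, 34.2 kb from its 5′ end (chr11:69489440-69490660), with ranks of 6823 to 16700 in 17 libraries. In BE2C it ranked at 8867, 9902 and 8153 with shAhR-1, at 12754, 15419 and 8113 with shAhR-2, and at 11127, 7222 and 6823 with pLKO. The groups overlapped, and limma's log2 rank gain was −0.13 (SE 0.291, adjusted p = 0.851) with shAhR-1 and −0.51 (SE 0.291, adjusted p = 0.187) with shAhR-2. Inside the gene, the 2.20 kb region (chr11:69457808-69458336) was called lost with each hairpin in BE2C. It had no peak in any BE2C shAhR-1 library, ranked at 48159 and 69419 in BE2C shAhR-2 replicates 1 and 2 with none in replicate 3, and at 20069, 21517 and 25297 in BE2C pLKO. Kelly pLKO replicate 1 was the only Kelly library with a peak there, at rank 21917. Another intragenic region at 3.44 kb (chr11:69459124-69459504) had a similar pattern in the full lists. BE2C pLKO ranked it at 25958, 24633 and 23415, BE2C shAhR-2 had it once, at 55687, and neither BE2C shAhR-1 nor any Kelly library had it. In the full lists these 2 regions were the member regions lost with shAhR-1 in BE2C, where 0.78% of all regions were lost. The pLKO ranks at these regions lay between 20069 and 25958, toward the end of the shortened list of 25660 peaks.

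CDK4 encodes the kinase partner of cyclin D1, and 5 of the 11 regions in its window had a peak in at least 17 libraries. The peak at its 5′ end (chr12:58145554-58146658), over the promoter printed above with 3 CACGTG matches, was the only 5′-end peak present in all 18 libraries. In BE2C it ranked at 1335, 1915 and 1226 with shAhR-1, at 2577, 2553 and 4223 with shAhR-2, and at 1126, 1563 and 989 with pLKO. All 3 shAhR-2 libraries stood below all 6 others. The log2 rank gain was −1.33 with shAhR-2 (SE 0.415, 95% interval −2.19 to −0.47, limma adjusted p = 0.0178) and −0.28 with shAhR-1 (SE 0.415, adjusted p = 0.756). The fold at the summit was 10.0, 7.25 and 8.18 with shAhR-1, 6.97, 6.76 and 5.45 with shAhR-2, and 10.6, 11.0 and 11.5 with pLKO. In Kelly it ranked at 2775, 4590 and 2885 with shAhR-1, at 3681, 2971 and 3539 with shAhR-2, and at 2877, 3079 and 3021 with pLKO, and neither hairpin passed limma's threshold (gains −0.15 and −0.18, adjusted p = 0.899 and 0.823).

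The CDK4 region at −30.4 kb (chr12:58176076-58177282) went the other way in BE2C. It ranked at 12515, 9704 and 10649 with shAhR-1, at 3219, 3468 and 5550 with shAhR-2, and at 14168, 11582 and 15219 with pLKO. The shAhR-2 libraries did not overlap with the others, and the log2 rank gain was 1.78 (SE 0.288, 95% interval 1.18 to 2.37, limma adjusted p = 0.000117), a 3.43-fold change in rank. With shAhR-1 it was 0.32 (SE 0.288, adjusted p = 0.584). Its fold was 8.95, 6.49 and 6.20 with shAhR-1, 13.2, 12.6 and 9.51 with shAhR-2, and 6.88, 8.59 and 8.61 with pLKO, so the shAhR-2 libraries were highest on that scale too. In Kelly the region had no peak in shAhR-1 replicate 1, ranked at 14640 and 21769 in the other shAhR-1 libraries, at 9536, 7956 and 8301 with shAhR-2, and at 10420, 17290 and 9676 with pLKO. All 3 Kelly shAhR-2 ranks were above those of pLKO, but the region entered no Kelly test because a library lacked it at equal list length. Between these regions, the −19.9 kb region (chr12:58165386-58166807) ranked in BE2C at 3424, 1433 and 1505 with shAhR-1, at 1709, 1262 and 1996 with shAhR-2, and at 5097, 3315 and 2410 with pLKO. Its gain with shAhR-2 was 1.08 (SE 0.435, limma adjusted p = 0.0630), short of the threshold although shAhR-2 and pLKO did not overlap, and it passed when any one of the BE2C shAhR-1 libraries was left out of the fit (adjusted p = 0.0384 to 0.0459). The 7.37 kb region beyond the gene (chr12:58138149-58139571) had a peak in 17 libraries at ranks of 1986 to 10673. It passed only without BE2C shAhR-1 replicate 1, with a shAhR-1 gain of −1.60 (limma adjusted p = 0.0153), against −1.05 (SE 0.424, adjusted p = 0.165) with all 9 libraries.

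CDKN1A encodes p21, the CDK inhibitor that p53 induces. No library had a peak within 500 bp of the 5′ end of the gene body. Its main region lay inside the gene (chr6:36646150-36648507), with the summit between 2161 and 4026 bp from the 5′ end and a median of 2226 bp over 17 libraries. The RefSeq start of the promoter printed above lies 2251 bp inside the gene on GRCh38. In BE2C this region ranked at 21737, 24246 and 22827 with shAhR-1, at 16846, 21540 and 20746 with shAhR-2, and at 21872, 18843 and 15091 with pLKO. In Kelly it had no peak in shAhR-1 replicate 1, ranked at 16317 and 16389 in the other shAhR-1 libraries, at 20077, 25183 and 20824 with shAhR-2, and at 16738, 15770 and 14702 with pLKO. All 3 Kelly shAhR-2 libraries stood below those of pLKO, and this was not tested with all 9 Kelly libraries. In BE2C each hairpin overlapped pLKO, the shAhR-1 libraries stood below those of shAhR-2, and the gains were −0.32 with shAhR-1 (SE 0.202, limma adjusted p = 0.407) and −0.09 with shAhR-2 (SE 0.202, adjusted p = 0.764).

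Upstream of CDKN1A, peaks that mostly ranked beyond the equal list length of 9204 differed between the Kelly groups. The −9.10 kb region (chr6:36634664-36635608) ranked at 14764 in Kelly shAhR-1 replicate 2 and was not called in the other shAhR-1 libraries. It ranked at 22441, 29044 and 31952 with shAhR-2 and at 10505, 15996 and 12698 with pLKO, with no overlap. The −21.1 kb region (chr6:36622785-36623413) had ranks of 8764 and 13077 in Kelly shAhR-1 replicates 2 and 3, of 54282 in shAhR-2 replicate 3 only, and of 23663 and 23505 in pLKO replicates 1 and 3. Without Kelly shAhR-1 replicate 1, at 19984 peaks, 36 member regions entered the count in Kelly. The −21.1 kb region was then gained with shAhR-1 (background 3.31%). The −9.10 kb region and the 5′ part of the intragenic region (chr6:36646150-36647144) were lost with shAhR-2 (background 3.43%). All 3 Kelly shAhR-2 libraries had a peak at the −9.10 kb and at the intragenic region in their full lists. At the intragenic region these ranked at 20077 to 25183, past the cutoff of 19984. No region was called at the full set of libraries, whose lists of 9204 peaks end before most of these ranks.

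CDKN1B encodes p27, a brake on cyclin E with CDK2. Its 5′ end (chr12:12869624-12871274) was strongly open, with ranks of 1785 to 7288 in 17 libraries. In Kelly it was not called in shAhR-1 replicate 1, ranked at 2422 and 5250 in the other shAhR-1 libraries, at 1785, 3352 and 1813 with shAhR-2, and at 1864, 2058 and 3654 with pLKO. In BE2C it ranked at 3744, 4004 and 7288 with shAhR-1, at 2382, 3270 and 2652 with shAhR-2, and at 4926, 3227 and 4858 with pLKO. The groups overlapped within each line except for shAhR-1 against shAhR-2 in BE2C, and limma's gain in BE2C was −0.17 with shAhR-1 (SE 0.368, adjusted p = 0.846) and 0.63 with shAhR-2 (SE 0.368, adjusted p = 0.199).

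Both further CDKN1B regions described next were present in all 18 libraries. The 7.59 kb region (chr12:12876719-12879060) ranked in BE2C at 4391, 1338 and 2904 with shAhR-1, at 8142, 6200 and 8240 with shAhR-2, and at 7134, 6146 and 4758 with pLKO. All 3 shAhR-1 libraries stood above pLKO, with a log2 gain of 1.20 (SE 0.384, 95% interval 0.41 to 2.00), but the limma adjusted p of 0.0771 did not pass. Without BE2C shAhR-1 replicate 1 it did, with a gain of 1.59 (adjusted p = 0.0141 by limma). In Kelly it ranked at 1744, 3300 and 5796 with shAhR-1, at 3928, 2824 and 5100 with shAhR-2, and at 6146, 4090 and 4289 with pLKO, with overlap. The −32.9 kb region (chr12:12836625-12838088) ranked in Kelly at 8351, 5890 and 12276 with shAhR-1, at 2840, 2438 and 3060 with shAhR-2, and at 6900, 5199 and 6763 with pLKO. All 3 Kelly shAhR-2 libraries stood above pLKO, and without Kelly shAhR-1 replicate 1 the gain of 1.17 passed (SE 0.354, limma adjusted p = 0.0387), as it did without Kelly shAhR-1 replicate 3 (adjusted p = 0.0306). With all 9 Kelly libraries the region was not tested, because its rank in shAhR-1 replicate 3, 12276, lay beyond 9204. In BE2C the shAhR-2 gain at this region was 0.43 (SE 0.288, adjusted p = 0.270), with ranks of 5734, 6586 and 6477 with shAhR-2 and of 5930, 10539 and 9542 with pLKO. The 41.6 kb region (chr12:12911462-12912365) was called lost with each hairpin in BE2C at equal length. It ranked at 27295 in BE2C shAhR-1 replicate 1 and was not called in the other shAhR-1 libraries, at 40851, 26276 and 35708 with shAhR-2, and at 16101, 17744 and 13398 with pLKO. All 3 shAhR-2 libraries thus had the peak in their full lists.

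CDKN2A encodes p16INK4a and p14ARF from separate first exons with separate starts. The outer region, at the 5′ end of the gene body (chr9:21993782-21996287), ranked in BE2C at 9781, 12801 and 6110 with shAhR-1, at 11699, 12674 and 9519 with shAhR-2, and at 10043, 8465 and 10309 with pLKO. In Kelly it had no peak in shAhR-1 replicate 1, ranked at 7461 and 15135 in the other shAhR-1 libraries, at 19467, 13330 and 17495 with shAhR-2, and at 18467, 11170 and 13793 with pLKO. The inner region, 19.6 kb into the body (chr9:21973965-21975811), is the nearest to the inner RefSeq start, which lies 20.5 kb inside the gene on GRCh38. It ranked in BE2C at 7896, 5030 and 9258 with shAhR-1, at 8373, 5028 and 8667 with shAhR-2, and at 7470, 8781 and 9578 with pLKO. No Kelly shAhR-1 library had it, Kelly shAhR-2 ranked it at 25980, 19256 and 28417, and Kelly pLKO at 21103 and 17607 with none in replicate 2. The inner region was thus called in 5 of 9 Kelly libraries, against all 9 in BE2C, and no Kelly rank reached the BE2C range of 5028 to 9578. In BE2C, groups overlapped at both regions, and the gains lay between −0.23 and 0.26 with limma adjusted p of at least 0.555.

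Other CDKN2A regions were seen in 1 line only. The −11.3 kb region (chr9:22005197-22006371) had a peak in no Kelly library and in 8 BE2C libraries, and the region 7.18 kb into the body (chr9:21986883-21987729) in no Kelly and 4 BE2C libraries. In Kelly alone, the 29.0 kb region (chr9:21965146-21965872) had a peak in 4 libraries, namely all 3 of shAhR-2 and pLKO replicate 1. The −14.7 kb region (chr9:22008673-22009718) was shared by 17 libraries.

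E2F1 encodes the transcription factor that the retinoblastoma protein holds in check. Its 5′ end (chr20:32272862-32274722), over the promoter printed above with 3 CCAAT matches, ranked in BE2C at 4915, 2870 and 4805 with shAhR-1, at 6641, 7896 and 6305 with shAhR-2, and at 2592, 1971 and 2234 with pLKO. All 6 hairpin libraries stood below all 3 pLKO libraries. The log2 rank gain was −1.62 with shAhR-2 (SE 0.350, 95% interval −2.34 to −0.90, limma adjusted p = 0.00145), a 3.07-fold change in rank. With shAhR-1 it was −0.86 (SE 0.350, 95% interval −1.58 to −0.13), and the adjusted p of 0.172 did not pass. The fold at the summit was 8.23, 6.88 and 6.20 with shAhR-1, 7.39, 6.79 and 6.78 with shAhR-2, and 10.2, 11.3 and 11.8 with pLKO. In Kelly the same peak was absent from shAhR-1 replicate 1, ranked at 7617 and 5144 in the other shAhR-1 libraries, at 5757, 7635 and 5957 with shAhR-2, and at 6088, 7066 and 10291 with pLKO, and the groups overlapped.

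Downstream of E2F1, 2 regions were lower with shAhR-2 in BE2C. The 12.0 kb region (chr20:32261543-32262867) ranked at 13365, 6221 and 13504 with shAhR-1, at 13460, 17122 and 13404 with shAhR-2, and at 6378, 7777 and 9422 with pLKO. Its shAhR-2 gain was −0.91 (SE 0.296, limma adjusted p = 0.0228). The 19.1 kb region (chr20:32254284-32255986) ranked at 16733, 15707 and 10175 with shAhR-1, at 17207, 17777 and 19111 with shAhR-2, and at 7449, 12114 and 12111 with pLKO, with a shAhR-2 gain of −0.81 (SE 0.255, limma adjusted p = 0.0196). At both, shAhR-2 and pLKO did not overlap, and the shAhR-1 gains of −0.42 and −0.43 did not pass (adjusted p = 0.457 and 0.367). Both shAhR-2 calls were lost without any single shAhR-2 library, without pLKO replicate 1 and with no filter on missing peaks, and that at 12.0 kb also without pLKO replicate 2. The limma adjusted p in those fits ran from 0.0511 to 0.112 at 12.0 kb and from 0.0503 to 0.119 at 19.1 kb. Of the upstream regions, the one at −45.8 kb (chr20:32319358-32320673) had a shAhR-2 gain of −0.90 (SE 0.398, adjusted p = 0.0916 by limma) and the one at −33.9 kb (chr20:32307501-32308664) of 0.09 (SE 0.361, adjusted p = 0.868).

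**Figure D3:**
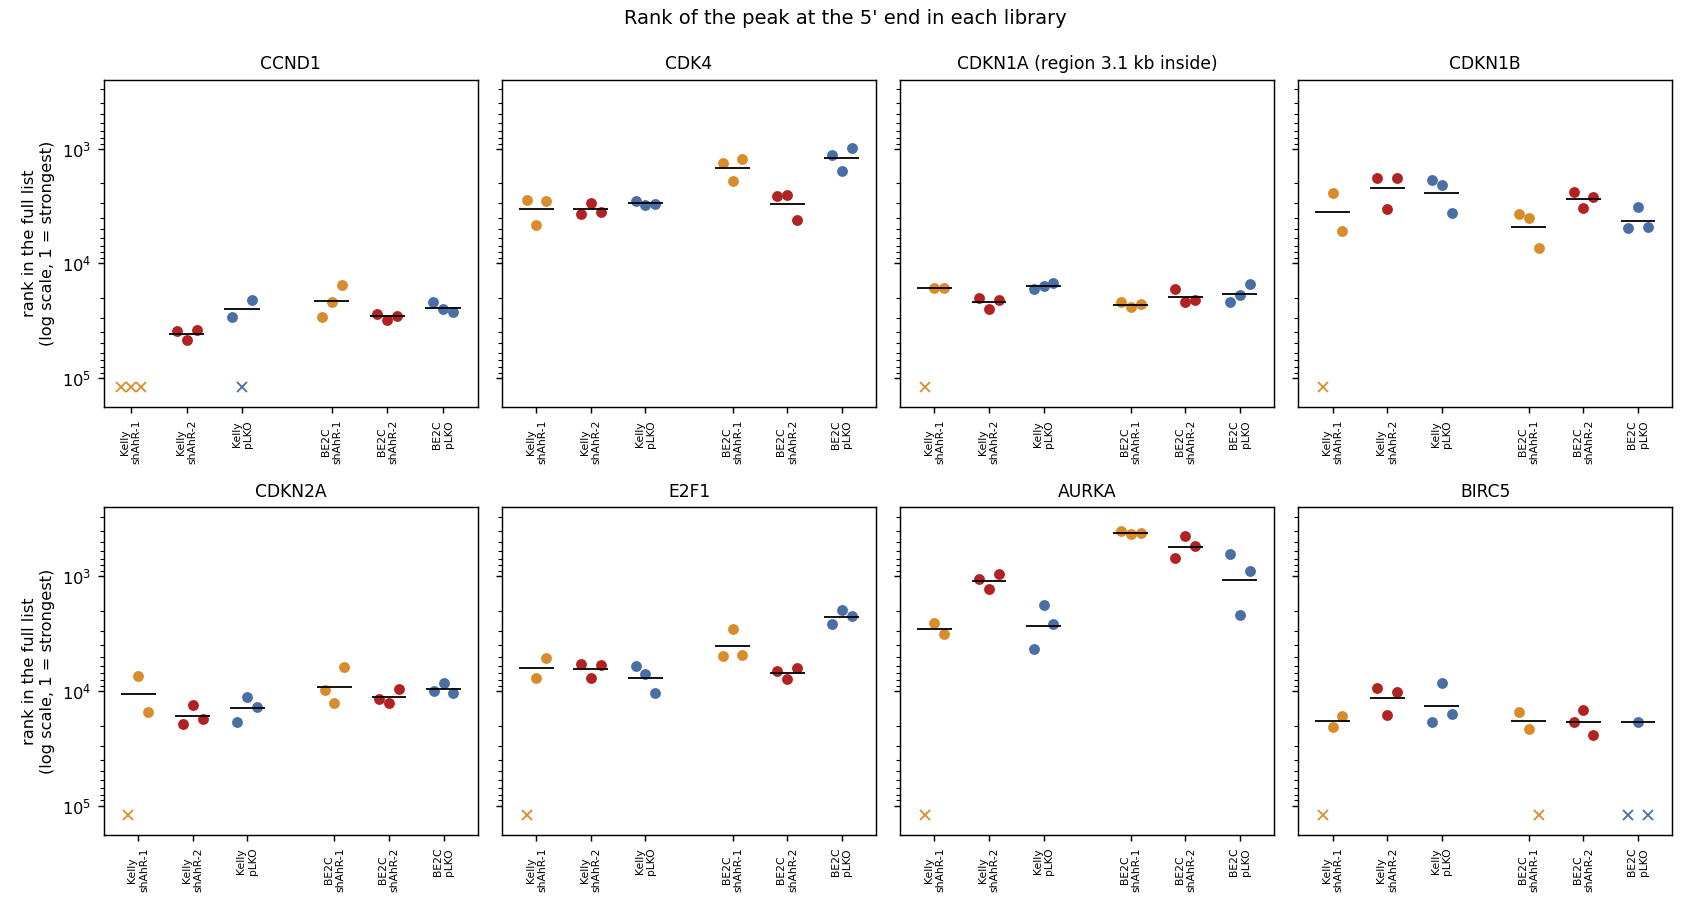
Rank of the peak at the 5′ end of 7 genes, and of the main CDKN1A region, in the full list of each library (y axis, log scale, 1 the strongest at the top). Each point is a library, grouped by line and by shAhR-1, shAhR-2 and pLKO, crosses at the bottom are libraries without a peak, and bars are geometric means of the libraries with one. AURKA stands highest, between 401 and 4258, and E2F1 in BE2C lies lower with shAhR-2 (6305 to 7896) than with pLKO (1971 to 2592).

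AURKA encodes Aurora kinase A, a kinase of the mitotic spindle that also stabilises the N-Myc protein. Its 5′ end (chr20:54966739-54968264) was the strongest of the 7, with a median rank of 958 over 17 libraries. BE2C ranked it at 401, 427 and 414 with shAhR-1, at 686, 448 and 539 with shAhR-2, and at 640, 2176 and 891 with pLKO. The shAhR-1 libraries stood above all pLKO libraries, with a gain of 1.38 (SE 0.480, 95% interval 0.39 to 2.37), but the limma adjusted p of 0.109 did not pass. With shAhR-2 the gain was 0.97 (SE 0.480, adjusted p = 0.130 by limma) and the groups overlapped. On the fold scale the order differed, with 13.5, 9.34 and 10.8 for shAhR-1, 9.73, 10.2 and 8.59 for shAhR-2, and 15.0, 13.4 and 14.2 for pLKO, and ranking by fold gave a shAhR-2 gain of −2.49 (limma adjusted p = 0.0218). The direction at this peak therefore depends on the measure used to rank it. Kelly had no peak there in shAhR-1 replicate 1, and ranked it at 2561 and 3202 in the other shAhR-1 libraries, at 1046, 1297 and 958 with shAhR-2, and at 4258, 1784 and 2580 with pLKO. Without Kelly shAhR-1 replicate 1, the Kelly shAhR-2 gain was 1.30 (SE 0.435, limma adjusted p = 0.0607).

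The region 48.2 kb from the 5′ end of AURKA (chr20:54918830-54919525) was the only member region gained in BE2C. BE2C shAhR-2 ranked it at 23906, 20911 and 22139, with folds of 7.66, 7.55 and 6.73, while no BE2C shAhR-1 and no BE2C pLKO library had a peak. Kelly shAhR-2 ranked it at 20139, 17656 and 32194, with folds of 7.23, 6.72 and 5.22, Kelly shAhR-1 had it once, at rank 19497 with a fold of 4.67, and no Kelly pLKO library had it. In the full lists it was gained with shAhR-2 in Kelly as well, where 12.1% of all regions were gained that way, against 13.5% in BE2C. The shAhR-2 lists were the longest of each line and had the highest background, and the part of depth in this call was not tested beyond the equal list length. A region seen in all 18 libraries at 33.2 kb (chr20:54933380-54934826) ranked at 868 to 6449 and passed in no hairpin comparison.

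BIRC5 encodes survivin, which acts with Aurora B in mitosis. Its 5′ end (chr17:76209851-76210792) was weak and unevenly called in BE2C. There it ranked at 15331 and 21553 in shAhR-1 replicates 1 and 2, at 18524, 14614 and 24291 with shAhR-2, and at 18528 in pLKO replicate 2 only. Kelly ranked it at 20397 and 16618 in shAhR-1 replicates 2 and 3, at 9433, 16260 and 10149 with shAhR-2, and at 18532, 8477 and 15957 with pLKO. Each hairpin's ranks overlapped those of pLKO in each line, while in Kelly all 3 shAhR-2 libraries stood above both shAhR-1 libraries with a peak. The −27.1 kb region (chr17:76182661-76183670) was in all 18 libraries at ranks of 2201 to 9760. In BE2C its gain was 0.34 with shAhR-1 (SE 0.348, adjusted p = 0.631 by limma) and −0.23 with shAhR-2 (SE 0.348, adjusted p = 0.644). The 40.3 kb region (chr17:76250352-76250797) had a peak in 13 libraries at ranks of 11849 to 39284.

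**Figure D4:**
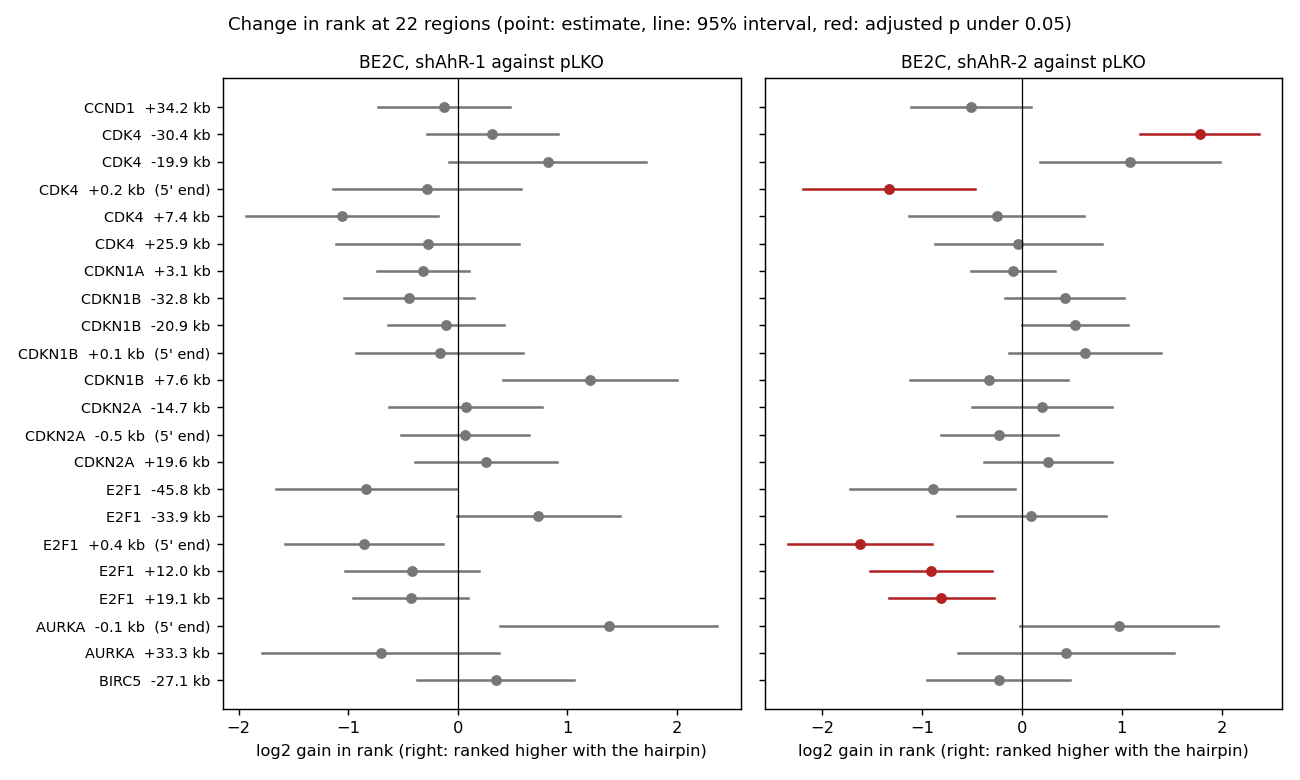
Log2 rank gain in BE2C at the 22 regions near the 8 genes that had a peak in all 9 libraries at equal length (x axis, positive where the region ranked higher with the hairpin), for shAhR-1 on the left and shAhR-2 on the right, each against pLKO. Points are limma estimates, lines 95% intervals, and red marks an adjusted p under 0.05. No region is red with shAhR-1 and 5 are with shAhR-2, from −1.62 at the E2F1 5′ end to 1.78 at −30.4 kb from CDK4.

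Leaving out 1 library changed how many of the 22 BE2C regions passed with shAhR-2, from 5 to 3 without shAhR-2 replicate 1 or 2, and to 2 without shAhR-2 replicate 3 or pLKO replicate 1. The 5′ end of E2F1 and the −30.4 kb region of CDK4 passed in each of these fits. The 5′ end of CDK4 did not pass without shAhR-2 replicate 3 (adjusted p = 0.110 by limma), pLKO replicate 1 (0.0536) or pLKO replicate 3 (0.0728). The background of 3.40 to 4.42 reads in BE2C shAhR-2 against 1.50 to 1.86 in BE2C pLKO moves with these results, and its part was not tested.

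Hairpin effects over both lines were also tested region by region with a two-sided exact permutation test of 400 arrangements, in which libraries were exchanged within a line and the smallest possible p is 0.005. Only 5 member regions had a peak in all 18 libraries at the equal length of their own line. None passed after adjustment with shAhR-1 (background 0%, and 14.8% unadjusted) or with shAhR-2 (background 24.6%, and 43.9% unadjusted). The 5′ end of CDK4 came nearest with shAhR-2, at a mean gain of −0.75 (exact p = 0.015, adjusted p = 0.0522). Its −19.9 kb region had a mean gain of 0.64 with shAhR-2 (exact p = 0.035, adjusted p = 0.0885). The 7.59 kb region of CDKN1B had a mean gain of 0.88 with shAhR-1 (exact p = 0.04, adjusted p = 0.319).

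The lines differed at these genes. Kelly was set against BE2C with limma over all conditions, with condition in the model and lists shortened to 9204 peaks. Only 4 member regions had a peak in all 18 libraries at that length, and 3 ranked lower in Kelly, against 20% of all regions tested that ranked lower and 41.1% that passed in either direction. These were the 5′ end of CDK4 (log2 gain −0.89, SE 0.244, adjusted p = 0.00418), its −19.9 kb region (−0.93, SE 0.261, adjusted p = 0.00481) and the 33.2 kb region of AURKA (−0.76, SE 0.295, adjusted p = 0.0367). At the −19.9 kb region the difference was not seen between the pLKO libraries alone, where the gain was −0.041 (SE 0.376, adjusted p = 0.951 by limma).

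Without Kelly shAhR-1 replicate 1 the lists were longer, and 12 of 16 member regions passed, 2 higher and 10 lower in Kelly. The backgrounds were 43.1% in all, 22.6% higher and 20.5% lower. The median gain of the 16 was −0.76, against 0.028 over all regions. The 5′ end of AURKA differed most, with ranks of 958 to 4258 in Kelly and of 401 to 2176 in BE2C (log2 gain −1.63, SE 0.314, limma adjusted p = 0.00012). Over all conditions the median fold at this summit did not show that order, being 10.9 for Kelly and 10.8 for BE2C. Within conditions the folds differed. With pLKO every Kelly fold (8.72 to 13.1) lay below every BE2C fold (13.4 to 15.0). The same held with shAhR-1 (Kelly 8.55 to 9.17, BE2C 9.34 to 13.5). With shAhR-2 the order was reversed (Kelly 10.8 to 11.9, BE2C 8.59 to 10.2). Between the pLKO libraries alone the gain of −1.33 did not pass (SE 0.499, limma adjusted p = 0.0661). Next came the E2F1 regions at −33.9 kb (−1.20, SE 0.226, adjusted p = 9.2e-05 by limma) and −45.8 kb (−1.04, SE 0.214, adjusted p = 0.000247), with the E2F1 5′ end at −0.76 (SE 0.245, adjusted p = 0.0126). Over all conditions the E2F1 5′ end had the higher median fold in Kelly, 8.81 against 7.39 in BE2C. So it did with shAhR-1 (7.43 against 6.88) and with shAhR-2 (9.24 against 6.79). With pLKO the Kelly median was the lower one, 8.41 against 11.3. The shAhR-2 ranks of the lines overlapped there (Kelly 5757 to 7635, BE2C 6305 to 7896). The CDKN2A region at −14.7 kb was lower in Kelly with no overlap between the lines (gain −0.98, SE 0.188, limma adjusted p = 0.000107), although its median fold was 8.19 in Kelly and 7.81 in BE2C, and its outer 5′ end also ranked lower (−0.46, SE 0.173, adjusted p = 0.0307). At CDK4 the 5′ end, the −19.9 kb and the 25.9 kb regions were lower, with gains of −0.90, −0.87 and −0.95, and at CCND1 the 34.2 kb region, with −0.55. The −32.9 kb region of CDKN1B (0.70, SE 0.199, limma adjusted p = 0.00547) and the −27.1 kb region of BIRC5 (0.85, SE 0.234, adjusted p = 0.00407) ranked higher in Kelly. The 33.2 kb region of AURKA no longer passed (adjusted p = 0.0504 by limma). Nor did it when any Kelly shAhR-2 library, Kelly pLKO replicate 2, BE2C shAhR-1 replicate 1, BE2C shAhR-2 replicate 1 or 3, or BE2C pLKO replicate 1 was left out, with adjusted p up to 0.0973.

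Between the pLKO libraries of the lines alone, 6 of 17 member regions passed, 1 higher and 5 lower in Kelly, against a background of 23.9% (11.8% higher, 12.1% lower). The lower ones were the 5′ ends of E2F1 (gain −1.76, limma adjusted p = 0.00183) and CDK4 (−1.31, adjusted p = 0.0215), both upstream E2F1 regions and the −14.7 kb region of CDKN2A. The higher one was the −27.1 kb region of BIRC5, at ranks of 3307, 2201 and 2768 in Kelly pLKO and of 9760, 4436 and 5343 in BE2C pLKO (gain 1.17, limma adjusted p = 0.0313).

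**Figure D5:**
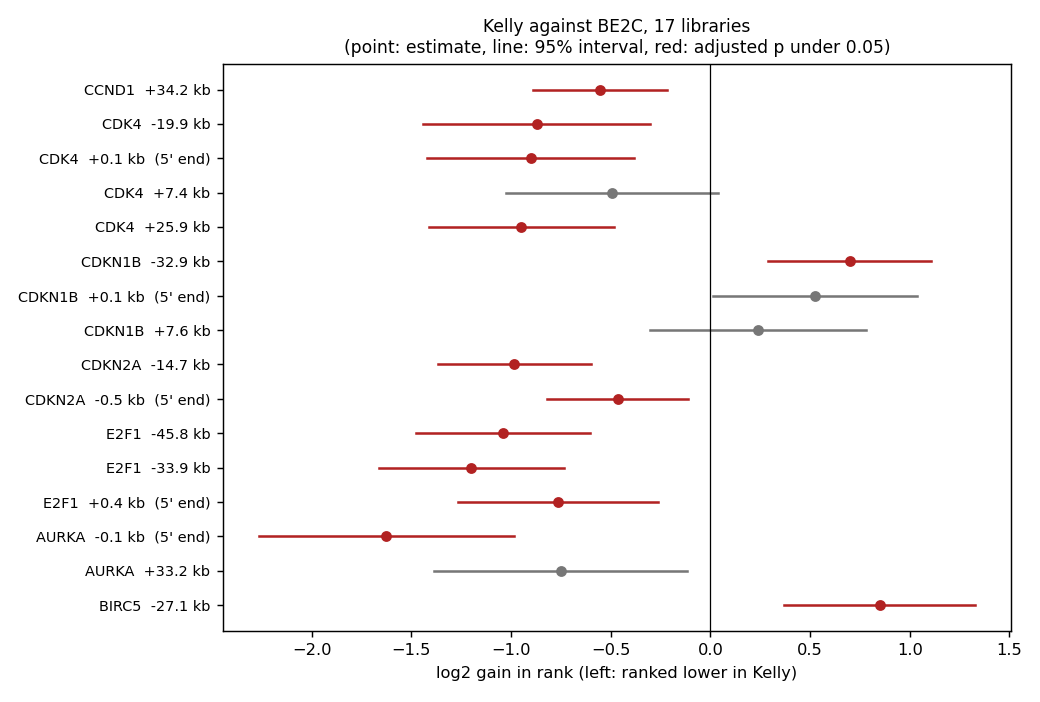
Log2 rank gain of Kelly against BE2C at 16 regions near the 8 genes, over the 17 libraries that remain without Kelly shAhR-1 replicate 1 (x axis, negative where the region ranked lower in Kelly). Points are limma estimates, lines 95% intervals, and red marks an adjusted p under 0.05. Of the 12 red regions, 10 lie left of 0, with the AURKA 5′ end farthest at −1.63, and regions of CDKN1B and BIRC5 lie to the right.

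Whether a hairpin acted differently in the lines was tested as an interaction in limma. With all 18 libraries, 4 member regions could be tested and none passed with shAhR-1 (background 0.0334%) or shAhR-2 (background 4.61%). Before adjustment 1 had a limma p under 0.05 with each hairpin, against 8.18% of all regions with shAhR-1 and 20.4% with shAhR-2. Without Kelly shAhR-1 replicate 1, 1 of 16 passed with shAhR-2 (background 6.83%) and none with shAhR-1 (background 0.237%). Before adjustment 3 had a limma p under 0.05 with shAhR-1, against 11.7% of all regions, and 2 with shAhR-2, against 23.1%. The region that passed was the 5′ end of E2F1, where the shAhR-2 gain was 0.25 in Kelly and −1.62 in BE2C, a difference of 1.87 (SE 0.448, 95% interval 0.95 to 2.79, limma adjusted p = 0.0117). At the 5′ end of CDK4 the difference was 1.15 (SE 0.528, adjusted p = 0.207) with all libraries and did not pass.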

How the data were processed

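ATAC-seq was measured in 18 libraries of Kelly and BE2C cells, grouped by the cell line and genotype labels. The input was 50K cells, transposed for 30 min and amplified over 10 PCR cycles, per the labels' protocols. MACS2 2.1.0, BWA 0.7.17, deepTools 3.1.3, Trimmomatic 0.33 and CASAVA 1.8.2 are named, with build hg19, per the submitters' processing notes. Settings, duplicate removal and a shift of read ends, which bear on summit positions and on the peaks that pass, were not given in the sources used here.

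The authors deposited 1 list of peaks per library, not pooled. The integer score of each peak was deposited by the authors and not used. Fold enrichment at the summit is a ratio that the authors deposited. Each peak's −log10 p-value and −log10 q-value were likewise deposited by the authors, and the highest q-value was 0.05. All are values of single peaks, used here to describe, rank or filter within a list.

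Peaks off chromosomes 1 to 22 and X, 0.197% to 0.83% of a list, were dropped. Regions, ranks and calls were computed with Python 3.11.15, pandas 2.3.3 and SciPy 1.17.1, and rank tests with limma 3.58.1 (trend, R 4.3.3) on minus log2 rank over all regions with a peak in every library of the fit. With 3 libraries against 3, an exact test within a line cannot go below 0.1, so limma's shared estimate of the spread was used. Gained and lost regions have no p-value. The tests were tested on simulated data. The background of a library is the value most of its peaks share when fold and p are solved together (fold of 1.5 or more), and at least 99.97% of the pileups so found were whole within 0.05. Read totals were not analysed here, and depth is known only through this background. No 2 libraries shared more than 0.25% of peaks with identical borders.

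The 8 genes and all lists were chosen with earlier results of these data known. Named were the region at each 5′ end, the 2 other regions of a window seen in most libraries, and any region called. The directions of transcription of CCND1, AURKA and BIRC5, absent from the promoter table, were set by hand. Promoters are RefSeq sequences of GRCh38.p14, and neighbouring genes are named from the same release. Without an hg19 annotation, cell type markers and a list of other cell cycle genes were not analysed here, nor was AHR itself. Alternatives tried were the ranking by fold, no filter on missing peaks, 50% coverage of a region, full lists, full lists at a −log10 q of at least 5, a replicate block, the pLKO libraries alone and leaving out each library.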

Additional observations from a re-analysis of the deposited data

Results flagged for a closer look

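At 2 regions every shAhR-1 library of a line lay on the same side of its pLKO mean on the log2 rank scale, and the sides were opposite in the lines. Fitted shAhR-1 gains also had opposite signs at other regions that did not meet this rule. At the −19.9 kb region of CDK4, every Kelly shAhR-1 library ranked below the geometric mean of the Kelly pLKO libraries (6701, 6062 and 8044, against 2654, 3876 and 4308 with pLKO), and every BE2C shAhR-1 library ranked above that of BE2C pLKO (3424, 1433 and 1505, against 5097, 3315 and 2410). The log2 rank gain in Kelly minus that in BE2C was −1.78 (SE 0.544). It was picked out for these directions, not by a test, and in limma's interaction test the adjusted p of 0.213 did not pass.

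At the 5′ end of E2F1, without Kelly shAhR-1 replicate 1, the shAhR-1 gain was 0.28 in Kelly and −0.86 in BE2C, a difference of 1.14 (SE 0.476). Each of the 2 Kelly shAhR-1 libraries lay above the Kelly pLKO mean, but replicate 2 only barely, at rank 7617 against a geometric mean of 7621. Replicate 3 ranked at 5144 and Kelly pLKO at 6088, 7066 and 10291, so the Kelly direction rests on replicate 3. Each BE2C shAhR-1 library lay below the BE2C pLKO mean (4915, 2870 and 4805, against 2592, 1971 and 2234 with pLKO). The E2F1 5′ end too was picked out by direction, and the limma interaction did not pass (adjusted p = 0.345).

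With shAhR-2 the difference between the lines at the same 5′ end passed the interaction test of limma once Kelly shAhR-1 replicate 1 was left out (adjusted p = 0.0117). With that library kept the region could not be tested, since that library had no peak there.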

How the results depend on the processing

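In BE2C shAhR-1, 2 gained or lost regions became 1 in full lists at a −log10 q of at least 5 and 0 when lists were shortened by fold, and lay between 2 and 4 without single libraries. Over all regions, 567 were gained and 699 lost of 41417. At that q these were 78 and 628 of 71751, and by fold 471 and 641 of 45609. In BE2C shAhR-2, 3 became 6 at 50% coverage, 6 in full lists, 6 at a −log10 q of at least 5 and 5 by fold, and lay between 3 and 5 without single libraries. The E2F1 5′ end was 1 of the 4 gained at 50% coverage. Over all regions, 1486 were gained and 1325 lost of 41417. At 50% coverage these were 3764 and 788 of 41417, and in full lists 15180 and 180 of 112448. At that q they were 13736 and 135 of 71751, and by fold 2108 and 2222 of 45609. In Kelly shAhR-1, 0 became 1 at a −log10 q of at least 5, and lay between 0 and 2 without single libraries. Over all regions, 223 gained and 270 lost of 16749 became 20 and 828 of 59082. In Kelly shAhR-2, 0 became 3 in full lists, 3 at a −log10 q of at least 5 and 2 by fold, and lay between 0 and 2 without single libraries. Over all regions, 475 gained and 485 lost of 16749 became 12181 and 219 of 100814 in full lists. At that q they were 9048 and 170 of 59082, and by fold 737 and 825 of 19738. In BE2C 68 member regions entered in full lists, 58 at that q and 38 by fold. In Kelly these were 67, 56 and 22.

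Of the rank tests, BE2C shAhR-1 went from 0 to 1 region with no filter on missing peaks (the downstream CDKN1B region called lost at equal length) and lay between 0 and 2 without single libraries. BE2C shAhR-2 went from 5 regions to 7 with no filter, to 4 by fold and to 1 at 50% coverage, where only 10 were tested, and lay between 2 and 7 without single libraries. The exact test called 0 of 5 with shAhR-2, but over the libraries of both lines, so this count is not comparable with that in BE2C. Kelly shAhR-2 lay between 0 and 1 without single libraries. Kelly against BE2C went from 3 regions to 11 with no filter, to 6 with pLKO libraries only, and to 14 with no filter and without Kelly shAhR-1 replicate 1, a setting chosen after the data were seen. It lay between 2 and 12 without single libraries. The shAhR-2 interaction lay between 0 and 1 without single libraries. Shares over all regions are given above for the main fits, the pLKO libraries alone and the fits without Kelly shAhR-1 replicate 1. For the other rank fits they are not given here, so those changes of count cannot be set against a background.

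A fit with the replicate number as a block gave 5 regions in BE2C shAhR-2 and 3 in Kelly against BE2C, as without it, and changed no other count. Deviations of same-numbered libraries correlated at −0.244 to 0.0947 in BE2C and −0.160 to 0.111 in Kelly. With 3 libraries per group, such values cannot decide whether the numbers pair the samples.

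The sign turned at 8 single values. Ranking by fold gave −2.49 at the AURKA 5′ end (adjusted p = 0.0218 by limma) and −0.57 at the CDKN1B 5′ end in BE2C shAhR-2, and the cause was not tested. The others were values near 0 that passed in neither fit. Without single libraries, the shAhR-1 gain at the CDK4 5′ end in Kelly ran from −0.28 to 0.080 (without shAhR-1 replicate 2). In BE2C that at the CDKN1B 5′ end ran from −0.34 to 0.14 (without shAhR-1 replicate 3), with 0.033 without pLKO replicate 2, and that at the CDKN2A 5′ end from −0.23 (without shAhR-1 replicate 3) to 0.31. The shAhR-1 interaction at the CDK4 5′ end ran from −0.064 (without BE2C shAhR-1 replicate 2) to 0.36, with −0.011 without BE2C pLKO replicate 3. Of the other single values, 249 kept direction and side of the threshold and 27 fell short of it. With Kelly at 50% coverage, and with the lines or their interaction ranked by fold, no member region could be tested.

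Peak lists carry no value below the caller's threshold. The shortest list fixed the length compared, 9204 peaks in Kelly, and weak peaks such as those of CCND1, BIRC5 and CDKN1A entered few tests.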

Other observations

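The upstream window of AURKA held a further region seen with shAhR-2 alone. The −7.89 kb region (chr20:54974848-54975639) had a peak in Kelly shAhR-2 replicates 1 and 3 at ranks of 28657 and 53523 and in BE2C shAhR-2 at 37753, 40908 and 37045, while no shAhR-1 and no pLKO library of either line had it. Its ranks lie beyond the equal list lengths. In the full lists of BE2C, where shAhR-2 gained 13.5% of all regions, it was 1 of 6 member regions gained with that hairpin.

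Peak shape differed among the 5′ ends. The peak of CDKN2A was the widest, with a median of 1803 bp and summits from −894 to 100 bp of the 5′ end over 17 libraries. Those of CCND1 and BIRC5 were narrower, with medians of 434 and 520 bp over 14 libraries each. Summits at the 5′ end of CDKN1B stayed between −153 and −94 bp over 17 libraries, and those of AURKA between −129 and −37 bp.

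In the BIRC5 window weaker peaks were called in different numbers of libraries of the lines. The −45.6 kb region (chr17:76164163-76165281) had ranks of 7797 to 18372 in 7 Kelly libraries and of 23282 to 27743 in 5 BE2C libraries. Inside the gene, the 10.3 kb region (chr17:76220094-76221106) had a peak in 2 Kelly libraries, both of pLKO, at 27911 and 26241, and in 8 BE2C libraries at ranks of 14752 to 36588. Neither region had a peak in every library, and the differences were not tested.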
